A study of Mus musculus with 2 samples.

Results

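Chemokine and chemokine receptor transcripts were followed in the small intestine of mice on conventional chow and of mice on a diet free of food antigens. They were found by gene name on the arrays, which gave 57 of 27617 gene names and 74 of 41174 probes, control probes left out. The names taken were those of the CC, CXC, CX3C and XC chemokines and of their receptors, the atypical receptors Cxcr7, Ccrl1 and Ccrl2 and the receptor-like Ccr1l1 included. The rule for the members uses gene names alone.

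The animals were C57BL/6 mice aged 6 to 8 weeks. The control diet was conventional chow (Conv). The other diet, here FAF for food antigen-free, held amino acids in place of food antigens, and mice stayed on it for up to 5 generations. The labels speak of specific-pathogen-free and germ-free animals and do not say which gave these RNAs, so an effect of microbes and an effect of diet cannot be told apart if the 2 diets differed in this. Total RNA of whole small intestine was hybridised to 2 two-colour arrays. On the first array FAF RNA carried Cy5 and Conv RNA Cy3, and on the second the dyes were exchanged. The RNA codes in the labels are identical for the 2 arrays, so each diet is represented by 1 RNA sample. The sources used here do not say if that sample was 1 mouse or a pool. No test between diets was therefore possible, and statements below that the diets do or do not overlap compare arrays of the same RNA. In each value below, the figure after ± is the distance of either array from the mean of both, which covers dye and hybridisation error and none of the spread between mice.

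Chemokines are small secreted proteins that guide leukocytes through G protein-coupled receptors on their surface. In the small intestine, epithelial Ccl25 draws T cells and antibody-secreting cells that carry Ccr9, Ccl28 draws IgA-secreting cells that carry Ccr10, and Ccl20 draws lymphocytes and dendritic cells that carry Ccr6 to the epithelium over lymphoid follicles. Other members are induced in inflammation and recruit monocytes, eosinophils, neutrophils or effector T cells. Atypical receptors bind chemokines without the usual G protein signal and take them up.

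A probe counted as measured when it was well above background, by the scanner software's own mark, in at least 1 diet on both arrays. This held for 51 of the 74 member probes and for 43 of the 57 genes, against 25438 of 41174 probes and 17160 genes on the whole array. Of the 74 probes, 47 were well above background in both diets on both arrays and 20 in no channel at all. The 14 genes that were not measured were the chemokines Ccl1, Ccl22, Cxcl1, Cxcl2, Cxcl3, Cxcl15 and Cxcl17, the receptors Ccr1, Ccr4, Ccr8, Cxcr1, Cxcr2 and Cxcr5, and Ccr1l1. Of these, Cxcl1 and Cxcr5 were well above background in Conv on 1 array, and the other 12 had no probe above it in any channel. Cxcl1, Cxcl2 and Cxcl3 attract neutrophils through Cxcr2, and Cxcr5 guides B cells into follicles.

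Ccl24 was higher in FAF and Ccl28 was lower, and in the main processing described below these were the only members past 2-fold. Ccl24 encodes eotaxin-2, an eosinophil attractant that acts through Ccr3, and Ccl28 the mucosal ligand of Ccr10. To pass, a gene needed a mean ratio of at least 2-fold with at least 1.5-fold the same way on each array. This gave 1 higher and 1 lower of the 43 measured genes, or 2.33% each, beside 1.53% higher and 0.88% lower over all 17160 genes. At a looser limit of 1.5-fold in the mean, with both arrays the same way, Ccl24, Cxcl14, Ccl20 and Cxcl11 were higher and Ccl28, Ccl9, Ccl8 and Ccl5 were lower. These 4 and 4 genes were 9.30% of the members each, beside 4.52% and 3.59% over all genes. With 43 genes these shares rest on a few genes each. They also depend on the processing, which draws the ratios of dim probes toward 0. By the 2-fold rule, the scanner software's own ratio gave 3 members higher and 6 lower, beside 487 and 350 of all 17160 genes. The median log2 ratio of FAF over Conv was -0.04 over the members and -0.00 over all genes. Between the lower and the upper quartile, the members reached from -0.31 to 0.20, and that of all genes from -0.17 to 0.16. Between the members, 19 ratios lay above 0 and 24 below. The sign was the same on both arrays in 34 of 43 members, or 79.1%, and in 78.1% of all genes.

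**Figure D1:**
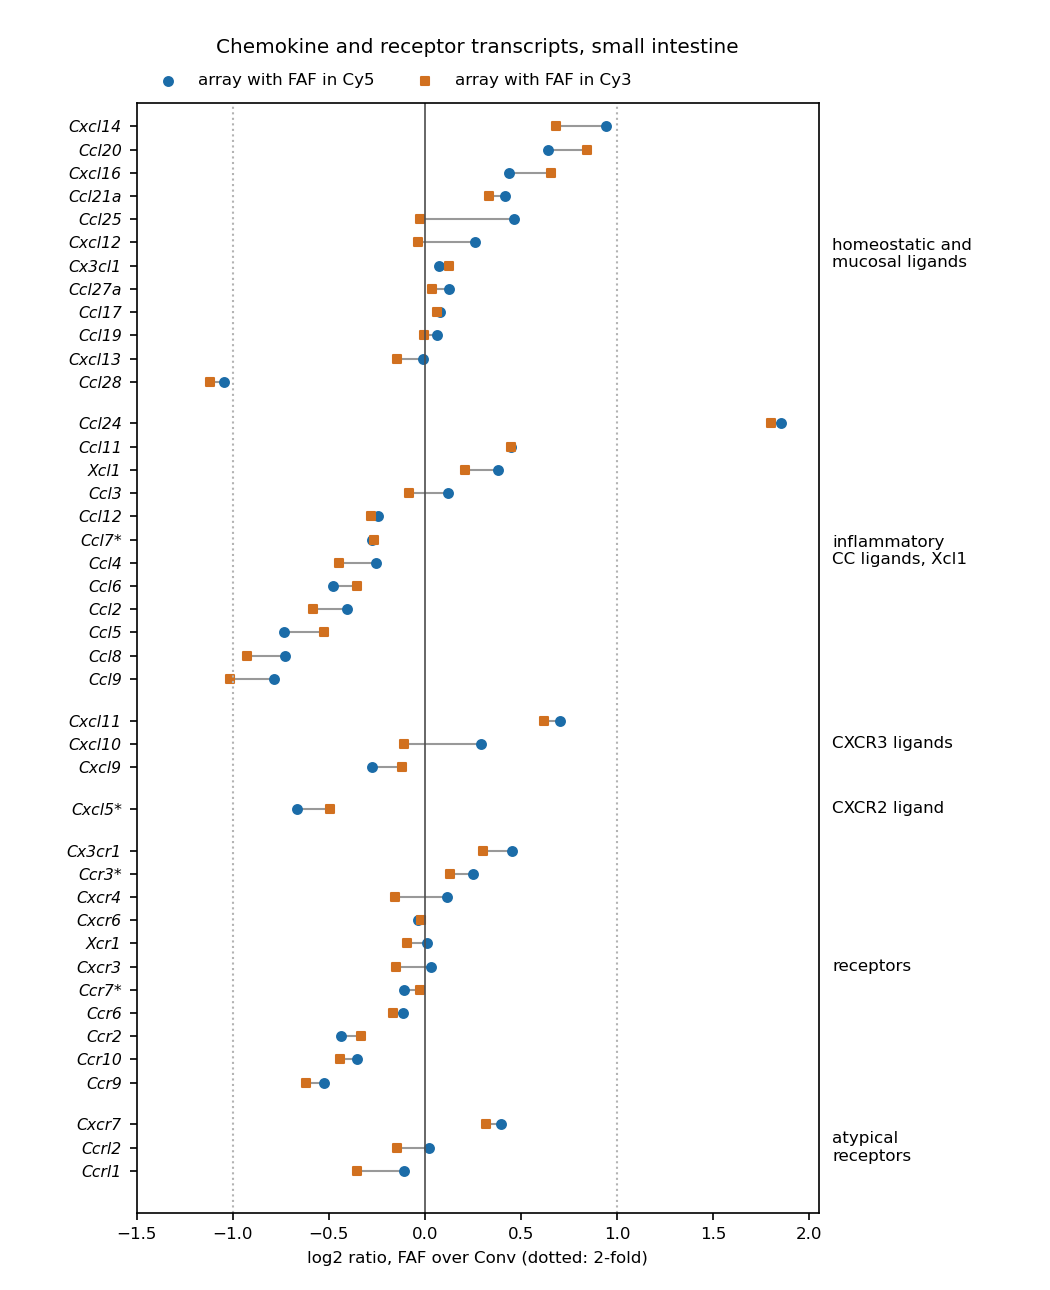
The log2 ratio of FAF over Conv of the measured genes, by role, with 1 point for each array and a line joining the arrays; dotted lines mark 2-fold, and an asterisk marks a gene that was not well above background in both diets on both arrays. Ccl24 stands alone on the right at 1.83 and Ccl28 lies lowest at -1.08, while the receptors lie between -0.57 and 0.38.

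Among the homeostatic and mucosal chemokines, Ccl28 stood apart from the rest. It was read by 1 probe of 60 bases, which the array files place between bases 366021 and 371070 of the unplaced part of chromosome 13 (13_random) in build mm9, so that the probe crosses at least 1 intron. The sequence is shown because the only Ccl28 value rests on it.
Ccl28 probe: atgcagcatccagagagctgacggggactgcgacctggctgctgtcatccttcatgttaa
Its log2 intensity was 8.00 in Conv and 6.96 in FAF on the array with FAF in Cy5, and 8.15 in Conv and 7.03 in FAF on the other. Both FAF values lay below both Conv values, and the arrays gave almost the same ratio. The mean log2 ratio was -1.08 ± 0.03, a level 2.11-fold lower in FAF. The software's own background-subtracted ratio put the same spots at -1.84, so the size of the fold depends on how background is removed from this dim probe.

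The base stretch before the Ccl28 start is shown for comparison with other members whose promoters carry known response elements. It is taken, like the others here, from RefSeq on GRCm38.p6, covers 250 bases that end just before the start, and lies at chr13:119623569-119623818 on the plus strand.
Ccl28 promoter: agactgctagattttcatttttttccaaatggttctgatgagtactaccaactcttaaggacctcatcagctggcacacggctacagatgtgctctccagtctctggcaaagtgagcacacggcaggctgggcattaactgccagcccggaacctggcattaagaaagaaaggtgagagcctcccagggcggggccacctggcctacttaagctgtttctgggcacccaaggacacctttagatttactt
3 short patterns were searched on both strands in these windows: the interferon response element (GAAA and GAAA, 2 bases apart), the STAT site (TTC and GAA, 3 bases apart) and the NF-kB site (GGGA and CC, 4 bases apart). None of these letters occurred in the Ccl28 window. A match or its absence describes these letters in this window and nothing about a factor.

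Cxcl14, a chemokine of epithelia, and Ccl20 were higher in FAF at the looser limit. The log2 intensity of Cxcl14 was 10.88 and 11.08 in Conv and 11.83 and 11.77 in FAF, the array with FAF in Cy5 first here and in all pairs that follow. Its log2 ratio was 0.81 ± 0.13. Ccl20 had log2 intensities of 6.90 and 6.75 in Conv and 7.54 and 7.59 in FAF, and a log2 ratio of 0.74 ± 0.10. In each gene both FAF values exceeded both Conv values. Ccl20 was dim, and its ratio rose to 1.45 in the software's own values. The Ccl20 window, at chr1:83116516-83116765 on the plus strand, holds 1 match to the NF-kB pattern, printed in capitals, whose first base lies 81 bases before the start.
Ccl20 promoter: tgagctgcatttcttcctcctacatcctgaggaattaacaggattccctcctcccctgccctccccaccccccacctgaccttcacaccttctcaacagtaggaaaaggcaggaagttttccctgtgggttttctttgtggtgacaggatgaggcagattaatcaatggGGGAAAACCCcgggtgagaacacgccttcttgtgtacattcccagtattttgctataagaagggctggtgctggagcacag
The 4 measured marker genes of follicle-associated epithelium (M cells), where Ccl20 is known to be made, had a median log2 ratio of 0.11. None passed the 2-fold rule, and 2 lay above 0 and 2 below. The 2 above were Gp2, at 0.30 ± 0.00, and Spib, at 0.27 ± 0.04. Gp2 was well above background in FAF on both arrays and in no Conv channel. The summed intensity of the 4 genes was 2545 and 2867 in Conv and 2713 and 2498 in FAF, so the diets overlapped. Without Anxa5, the largest part, the sum was 848 and 882 in Conv and 906 and 895 in FAF, higher in FAF on both arrays.

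**Figure D2:**
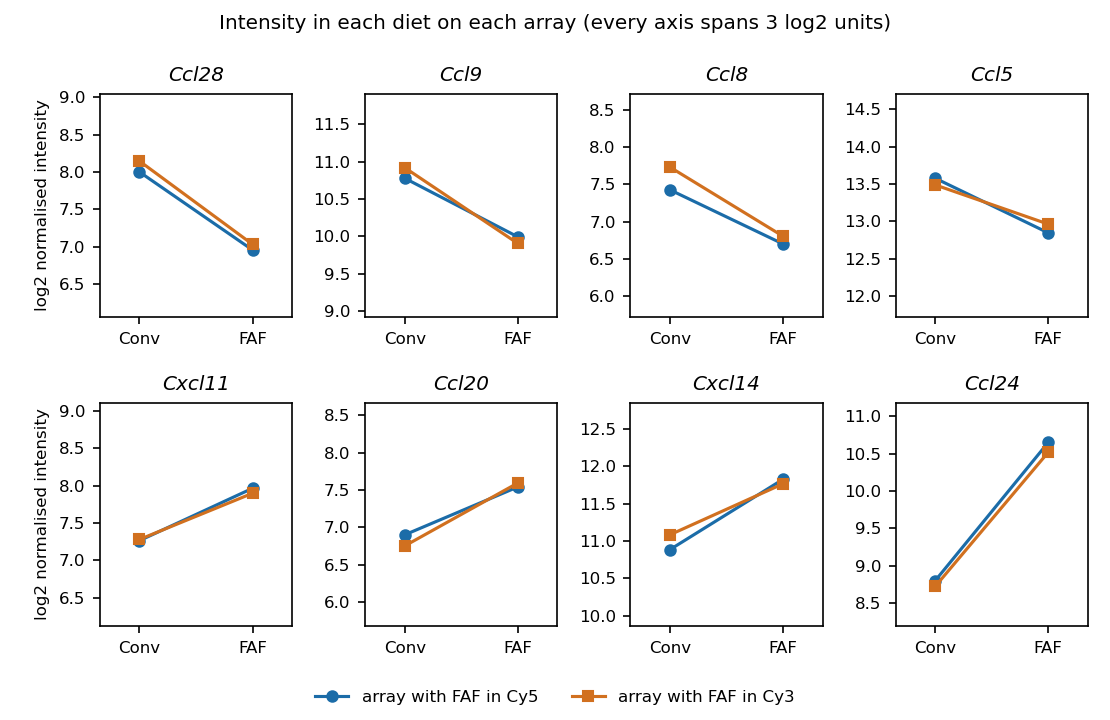
Normalised log2 intensity (vertical) in Conv and FAF (horizontal) of the 8 genes of at least 1.5-fold, with 1 line for each array; every vertical axis spans the same number of log2 units, and levels of different genes are not comparable. In each of the 8 genes the 2 diets do not overlap, and the lines of the 2 arrays run close together. The genes were chosen by the size of their ratio and both arrays carry the same RNA, so the gap is no added support.

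The remaining homeostatic ligands stayed under 1.5-fold. Cxcl16, which is held on the cell surface and binds Cxcr6, had log2 intensities of 10.08 and 9.89 in Conv and 10.52 and 10.55 in FAF, a ratio of 0.55 ± 0.11 that its other probe gave as 0.59. Ccl21a, the lymphatic ligand of Ccr7, stood at 0.37 ± 0.04, but its near-identical copies Ccl21b and Ccl21c could share the probe. For Ccl25, the epithelial ligand of Ccr9, the brightest probe gave 0.46 on one array and -0.02 on the other, a mean of 0.22 ± 0.24, and the other probe 0.33 ± 0.04. The arrays of that brightest probe thus differed by more than its mean. The membrane-bound Cx3cl1 had a ratio of 0.10 ± 0.03, Ccl27a 0.08, Ccl17 0.07 and the B cell attractant Cxcl13 -0.08.

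Ccl19 and Cxcl12 gave different answers from different probes. Ccl19, the other ligand of Ccr7, is read by neighbouring probes at chr4:42250352-42250411 and chr4:42250432-42250491 (mm9). The first gave a log2 ratio of 0.03 ± 0.03 and the second -0.77 ± 0.04, each with close agreement between arrays. Ccl19 has near-identical copies in the mouse genome, so which copy each probe reads is uncertain. Ccl19 was the only one of 8 genes with several measured probes whose probes differed by at least 0.5, and the median gap was 0.09. Cxcl12, which retains leukocytes through Cxcr4, came next: a probe of one transcript gave 0.11 ± 0.15 and a probe of another -0.35 ± 0.05. Of the 12 measured homeostatic genes, 10 ratios lay above 0 and 2 below, with a median of 0.11, and the signs of Ccl19, Ccl25 and Cxcl12 changed under at least 1 alternative.

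Among the inflammatory CC chemokines and Xcl1, 8 of 12 measured ratios lay below 0, with a median of -0.31, and only the sign of Ccl3 changed under an alternative. Ccl24 was the exception in size. Its log2 intensity was 8.80 and 8.72 in Conv and 10.65 and 10.52 in FAF, so the FAF values lay far above the Conv values on both arrays. The log2 ratio was 1.83 ± 0.03, or 3.55-fold higher in FAF. A further Ccl24 probe, at chr5:136046667-136046726 (mm9), gave a log2 ratio of 1.62 ± 0.05. Its sequence is shown because it gives a separate reading of the largest difference among the members.
Ccl24 second probe: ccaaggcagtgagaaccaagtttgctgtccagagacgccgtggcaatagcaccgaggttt
This probe had log2 intensities of 7.68 and 7.64 in Conv and 9.25 and 9.31 in FAF, again with no overlap. Ccl11, or eotaxin, another Ccr3 ligand, had log2 intensities of 9.09 on each array in Conv and 9.54 on each array in FAF, a ratio of 0.45 ± 0.00. It did not reach 1.5-fold. Ccr3 itself, the eotaxin receptor of eosinophils, stood at 0.19 ± 0.06 and was well above background in Conv on only 1 array. Another Ccr3 probe was well above background in no channel.

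Eosinophil and mast cell markers were examined beside these genes. Of 7 listed, 4 were measured, with a median log2 ratio of 0.15 and none past 2-fold. The eosinophil genes Prg2 and Siglecf had ratios of 0.73 ± 0.06 and 0.57 ± 0.12, the mast cell protease Mcpt1 one of -0.78 ± 0.06, and the eosinophil peroxidase gene Epx was not measured. The summed intensity of the measured markers was 957 and 1004 in Conv and 1142 and 1156 in FAF, and without Prg2 it was 615 and 662 in Conv and 598 and 566 in FAF. In RNA of whole tissue, more cells of a type and more RNA per cell cannot be told apart, and the part of eosinophil number in the Ccl24 ratio was not tested.

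Ccl9, Ccl8 and Ccl5 were the inflammatory ligands that were lower in FAF at the looser limit. Ccl9, which attracts myeloid cells, had log2 intensities of 10.78 and 10.92 in Conv and 9.99 and 9.91 in FAF. Its ratio was -0.90 ± 0.11. Ccl8, a monocyte attractant, had 7.42 and 7.73 in Conv and 6.70 and 6.80 in FAF, and a ratio of -0.83 ± 0.10. Both genes had all FAF values below all Conv values. Ccl5, which T cells and NK cells make, was bright, with 13.58 and 13.49 in Conv and 12.85 and 12.96 in FAF. Its ratio was -0.63 ± 0.10, and a further probe gave -0.64 ± 0.06. For this gene the scale of the values mattered little, since the software's own ratio was -0.68.

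T cell and intraepithelial lymphocyte markers lay in the same direction as Ccl5. Of 11 measured, 10 had ratios below 0, with a median of -0.43, and Cd8b1 and Cd5 were lower in FAF by the 2-fold rule, at -1.33 ± 0.08 and -1.05 ± 0.01. Their summed intensity was 9629 and 10142 in Conv and 6688 and 6721 in FAF. Whether fewer lymphocytes account for the Ccl5 ratio was not tested.

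The monocyte attractant Ccl2 offered a view of spot error, since its probe was printed 10 times on each array. The spot ratios reached from -0.54 to -0.23 with FAF in Cy5 (SD 0.10 over spots) and from -0.71 to -0.41 with FAF in Cy3 (SD 0.09). Every one of these spots lay below 0, and the mean over both arrays was -0.49 ± 0.09. This spread is that of spots on the same RNA and says nothing of mice. Ccl6, a myeloid attractant, had a ratio of -0.42 ± 0.06, the gene Ccl4 of a macrophage inflammatory protein one of -0.35 ± 0.09 and the monocyte attractant Ccl12 one of -0.26 ± 0.02. Ccl7, a further monocyte attractant, was well above background in Conv and in no FAF channel. Its measured level was 1.20-fold lower in FAF, from log2 means of 6.54 and 6.27, the second of which rests on signals near background. Another Ccl7 probe was well above background in no channel of either diet. Ccl3, a close relative of Ccl4, gave opposite signs on the arrays, with a mean of 0.02 ± 0.10, and Xcl1, the ligand of Xcr1 on cross-presenting dendritic cells, stood at 0.29 ± 0.09.

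Macrophage and dendritic cell markers were set beside these monocyte attractants. Of 13 measured, 8 ratios lay above 0 and 5 below, with a median of 0.22, and Cd14 alone passed the 2-fold rule, at -1.08 ± 0.06. Their summed intensity was 50993 and 53341 in Conv and 45192 and 43950 in FAF, most of it from the lysozyme gene Lyz2, at -0.29 ± 0.05. Without Lyz2 the sum was 4900 and 4896 in Conv and 6034 and 5634 in FAF, higher in FAF and so opposite in direction. The part of these cells in the ratios was not tested. Fat, fibroblast and smooth muscle markers had medians below 0. The 6 measured fat markers had a median log2 ratio of -1.67, with 5 past the 2-fold rule, and a summed intensity of 6870 and 7200 in Conv against 1500 and 1573 in FAF. Of the 5 fibroblast markers, 4 lay below 0 and Pdgfra above it at 0.13 ± 0.08, with a median of -0.88 and a summed intensity of 29184 and 29207 against 15568 and 15580, and the 5 smooth muscle markers a median of -0.58. Stromal and fat cells also make Ccl2, Ccl7 and Ccl8, and the part of a different share of these cells in the ratios was not tested.

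The CXCR3 ligands, which interferon gamma induces and which recruit effector T cells, had no common direction. Cxcl9 had log2 intensities of 9.52 and 9.43 in Conv and 9.24 and 9.31 in FAF, and a ratio of -0.20 ± 0.08. Cxcl10 had 8.31 and 8.48 in Conv and 8.61 and 8.37 in FAF, so the diets overlapped, and its ratio was 0.09 ± 0.20. Cxcl11 had 7.26 and 7.28 in Conv and 7.96 and 7.90 in FAF, with no overlap, and a ratio of 0.66 ± 0.04. The Cxcl11 gene of C57BL/6 mice is known to carry a frameshift, so its transcript is not a measure of the protein.

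The Cxcl9 and Cxcl10 windows are shown because both genes are textbook targets of interferon gamma and NF-kB and their values stayed near 0. Cxcl9 lies at chr5:92328080-92328329 and Cxcl10 at chr5:92348890-92349139, each on the minus strand, and capitals mark the matches.
Cxcl9 promoter: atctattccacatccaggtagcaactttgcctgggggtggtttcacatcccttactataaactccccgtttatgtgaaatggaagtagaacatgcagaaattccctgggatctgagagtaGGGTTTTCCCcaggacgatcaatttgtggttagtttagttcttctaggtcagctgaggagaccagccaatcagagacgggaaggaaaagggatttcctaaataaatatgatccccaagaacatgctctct
Cxcl10 promoter: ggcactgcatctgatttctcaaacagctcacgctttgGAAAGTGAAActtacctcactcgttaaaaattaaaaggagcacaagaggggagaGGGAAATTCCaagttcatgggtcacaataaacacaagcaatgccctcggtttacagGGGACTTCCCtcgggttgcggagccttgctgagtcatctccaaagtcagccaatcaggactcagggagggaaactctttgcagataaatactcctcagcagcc
Cxcl10 holds an interferon response element whose first base lies 213 bases before the start, and further in 2 NF-kB matches. Cxcl9 holds 1 NF-kB match, on the opposite strand, with its first base 130 bases before the start. The promoter table holds 49 windows of 43 of the 57 member genes. Genes with no window there include Ccl2, Ccl4, Ccl5, Ccl7, Ccl11, Ccl24, Cxcl5, Cxcl11, Cxcl16, Cxcl17, Ccr7, Ccr10 and Cxcr5. The NF-kB pattern occurred in 38.8% of the member windows, from 18 genes, and in 17.6% of all 32851 windows of the table. These 18 include Ccl20, above 0 in FAF, Ccr9, below 0, and unmeasured genes such as Ccl22, Cxcl1 and Cxcl2. The interferon element occurred in 3 genes (Ccl19, Cxcl10 and Cxcl14), beside 2.98% of all windows. The STAT pattern occurred in 4 genes (Ccl17, Ccr1l1, Ccr6 and Cxcl14), beside 7.02%.

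Of the neutrophil attractants that act through Cxcr2, Cxcl5 alone was measured. Its log2 intensity was 6.62 and 6.84 in Conv and 5.95 and 6.35 in FAF, and no FAF channel was well above background. The measured ratio was -0.58 ± 0.09. With FAF raised to the lowest level well above background where it was dimmer, Cxcl5 was 1.41-fold lower in FAF. That figure is not a strict minimum. Neither Cxcr1 nor Cxcr2, the receptors of these ligands, was measured. Of the neutrophil markers, S100a9 and Retnlg were measured, at -0.24 ± 0.00 and 0.67 ± 0.04, while S100a8, Mpo, Elane and Ngp were not.

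Among the typical receptors, 12 of 18 were measured, 10 ratios lay below 0 and 2 above, with a median of -0.06. In the main processing none passed at 2-fold or at 1.5-fold. Of the 10, Ccr7, Cxcr3, Cxcr4, Cxcr6 and Xcr1 changed sign under at least 1 alternative processing or on a single array, and Ccr9, Ccr10, Ccr2 and Ccr6 did not. Ccr9, the gut-homing receptor of lymphocytes, lay lowest, with log2 intensities of 9.10 and 9.23 in Conv and 8.58 and 8.61 in FAF and a ratio of -0.57 ± 0.05. Ccr10, the receptor of IgA-secreting cells, had 7.44 and 7.53 in Conv and 7.09 on each array in FAF, and a ratio of -0.40 ± 0.04. Both had FAF values below all Conv values, but the size of these ratios stayed under 1.5-fold. Ccr2, the monocyte receptor, followed at -0.38 ± 0.05, and its other probe was well above background in no channel. Ccr6, of follicle-bound lymphocytes, was at -0.14 ± 0.03, and Ccr7, which guides cells to lymph nodes, was at -0.07 ± 0.04 with FAF well above background on 1 array only.

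A further group of receptors had ratios near 0. Cxcr3, the receptor of effector T cells, had a ratio of -0.06 ± 0.09, Xcr1 of -0.04 ± 0.05, Cxcr6 of -0.03 ± 0.01 and Cxcr4 of -0.02 ± 0.14. Cx3cr1, which marks resident intestinal macrophages, lay highest of the receptors at 0.38 ± 0.08, with log2 intensities of 7.33 and 7.21 in Conv and 7.79 and 7.51 in FAF. Both FAF values exceeded both Conv values. Another Cx3cr1 probe was well above background on only 1 array in each diet and did not count as measured. Of the atypical receptors, Cxcr7 (now Ackr3), which takes up Cxcl12, was at 0.36 ± 0.04. Ccrl1 (now Ackr4), which takes up Ccl19, Ccl21 and Ccl25, was at -0.23 ± 0.12, and Ccrl2 at -0.06 ± 0.08.

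**Figure D3:**
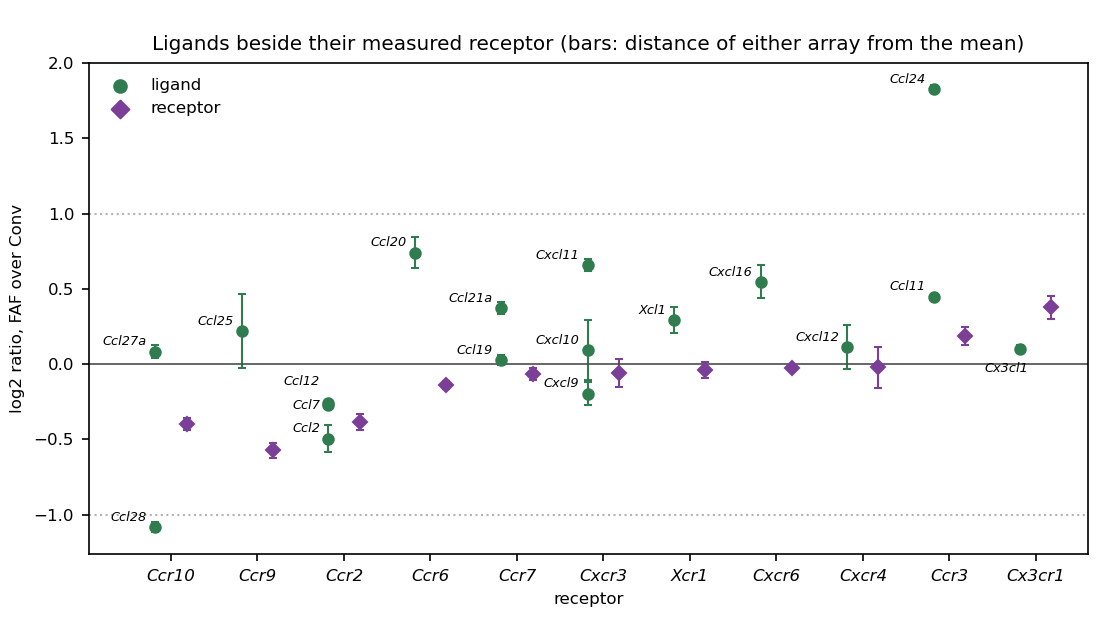
The log2 ratio of FAF over Conv of measured typical receptors (diamonds) beside measured ligands that bind it (circles), with bars for the distance of either array from the mean; dotted lines mark 2-fold. Ccl28 and Ccr10 both lie below 0, at -1.08 and -0.40, while Ccl25 lies at 0.22 and its receptor Ccr9 at -0.57.

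Set by pair, ligand and receptor did not always share a sign. Ccl28 (-1.08) and Ccr10 (-0.40) were both below 0, while Ccl27a, also a ligand of Ccr10, stood at 0.08. Ccl2 (-0.49) and Ccr2 (-0.38) also shared their sign. Ccl25 (0.22) and Ccr9 (-0.57) lay on opposite sides of 0, as did Ccl20 (0.74) and Ccr6 (-0.14) and Cxcl16 (0.55) and Cxcr6 (-0.03). The signs of Ccl25 and Cxcr6 changed under an alternative or on a single array, so for their pairs the contrast is not settled. Ccl24 (1.83) and Ccr3 (0.19), and Cx3cl1 (0.10) and Cx3cr1 (0.38), were both above 0. These pairs were set side by side after their values were known, and no test was made on them.

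Cells that carry Ccr10 and Ccr9 were represented by the lymphocyte and plasma cell markers. All 6 plasma cell markers had ratios below 0, with a median of -0.61, and none passed at 2-fold. Tnfrsf17, a receptor of antibody-secreting cells, was at -0.85 ± 0.01 and Mzb1, which assists antibody secretion, at -0.76 ± 0.08. Their summed intensity was 78768 and 77790 in Conv and 61343 and 50099 in FAF. Of 7 B cell markers, 4 were measured, with a median of -0.23 and sums of 2061 and 1966 against 1216 and 1309. Without Cd79b, the largest part, these sums were 320 and 291 against 301 and 298 and overlapped, while Cd79a, Blk and Fcer2a were not measured. Their part in the Ccr9 and Ccr10 ratios was not tested. Epithelial markers, whose cells make Ccl25 and Ccl28, were all 8 measured, 7 with ratios above 0 and Krt8 below it at -0.22 ± 0.37, with a median of 0.26. Alpi, the alkaline phosphatase of mature enterocytes, was higher at 1.31 ± 0.10. The part of epithelial cells in the Ccl28 ratio was not tested. Of 4 measured markers of innate lymphoid type 3 and NK cells, all were above 0, with a median of 0.35 and the NK receptor chain Klrd1 at 0.45 ± 0.08, and the 6 measured endothelial markers had a median of 0.28.

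**Figure D4:**
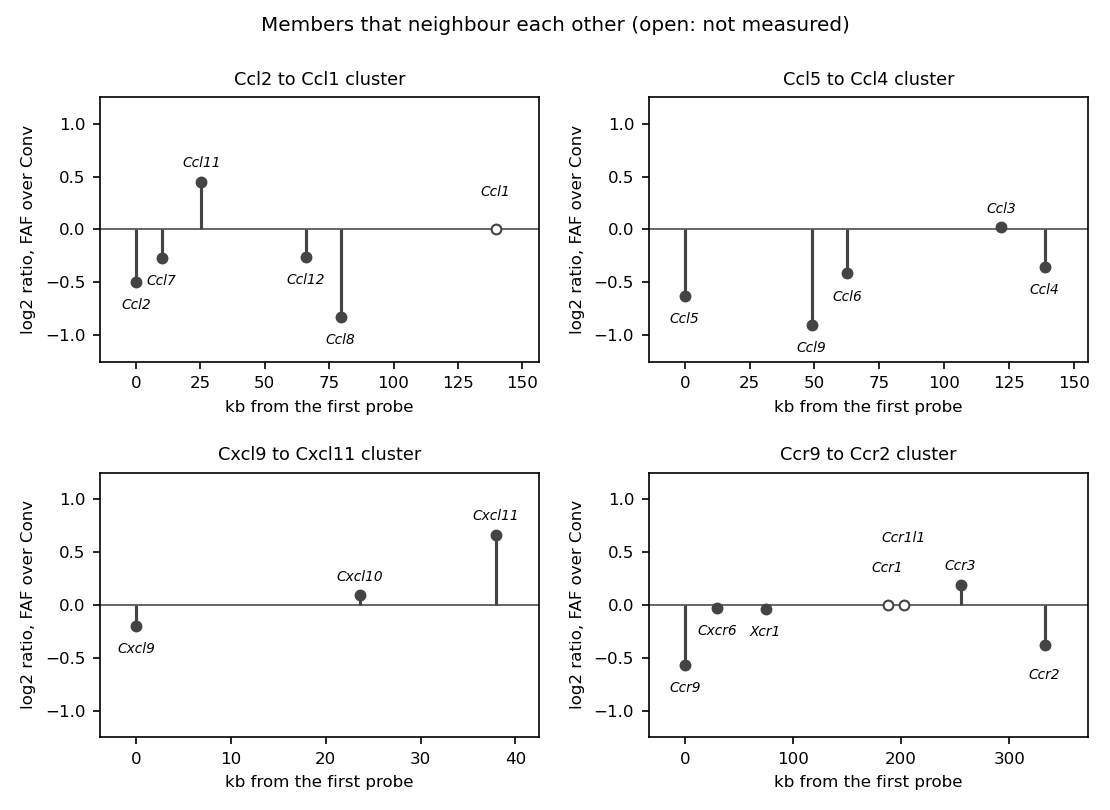
The log2 ratio of FAF over Conv (vertical) of members that lie next to each other in the genome, against the distance in kb from the first probe of the run (horizontal); open circles at 0 mark genes that were not measured. In the run from Ccl2 to Ccl1, Ccl11 lies above 0 at 0.45 between neighbours below 0, and in the run from Cxcl9 to Cxcl11 the values range from -0.20 to 0.66.

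Many chemokine genes lie in runs, here taken as neighbouring member probes no more than 200 kb apart in mm9. On chromosome 11, the run from 81850650 to 81990395 holds Ccl2, Ccl7, Ccl11, Ccl12, Ccl8 and Ccl1. Of its 5 measured genes, 4 lay below 0 and Ccl11 above, with a median of -0.27. The run from 83339296 to 83478111 on the same chromosome holds Ccl5, Ccl9, Ccl6, Ccl3 and Ccl4, of which 4 lay below 0 and Ccl3 just above, with a median of -0.42. Neighbours thus differed within a run, by the sign of Ccl11 in the first and by the range from -0.90 to 0.02 in the second. The CXCR3 ligands lie together on chromosome 5, from 92752191 to 92790274, with the 3 values given above. A further run on the same chromosome, from 91190205 to 91334593, holds the CXCR2 ligands Cxcl5, Cxcl3, Cxcl1 and Cxcl2 together with Cxcl15, of which Cxcl5 was measured. On chromosome 9, a run of 8 receptor genes starts at 123690334, of which 6 were measured, 5 below 0 and Ccr3 above, with a median of -0.12.

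Genes on the way from receptor to movement did not pass at either limit. Of 22 genes for signalling and ligand processing, all were measured, with a median of -0.05. Rgs1, which dampens chemokine receptor signals, was at 0.53 ± 0.16, and Grk6, a kinase that turns receptors off, at -0.49 ± 0.05. Of 7 further genes on the array whose names the rule does not cover, 5 were measured, with a median of 0.05. These 5 include Cmklr1 and Rarres2, which are not chemokine or chemokine receptor genes, and the median is the Rarres2 value. Of the others, Pf4, a platelet chemokine, was at -0.34 ± 0.17 and Ackr1, which moves chemokines across vessels, at -0.28 ± 0.04. Of 13 gut homing and adhesion genes, 12 were measured, with a median of -0.16 and none past 2-fold. Itgb7, a chain of the gut-homing integrin that binds Madcam1, was at -0.76 ± 0.03, and Selplg, a selectin ligand, at -0.33 ± 0.02, while Madcam1 was at -0.02 ± 0.02.

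Of 23 inducers and regulators of chemokine genes, 20 were measured, 7 with ratios above 0 and 13 below, with a median of -0.19. Nfkbiz, a nuclear partner of NF-kB, was lower in FAF at -1.04 ± 0.03, and none was higher by that rule. Relb and Nfkb1, which encode NF-kB subunits, stood at 0.47 ± 0.06 and 0.42 ± 0.07, and the cytokine gene Il1b at 0.44 ± 0.01. Ifng, the gene of interferon gamma, was well above background in Conv and in no FAF channel. Its measured log2 means were 6.98 and 6.31, the second of which rests on signals near background. Its other probe gave a ratio of -0.34. Irf1, an interferon-induced regulator, was at -0.38 ± 0.07. The CXCR3 ligands, which interferon gamma induces, had the ratios -0.20, 0.09 and 0.66 given above. Il17a, Il22 and Lta were not measured.

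**Figure D5:**
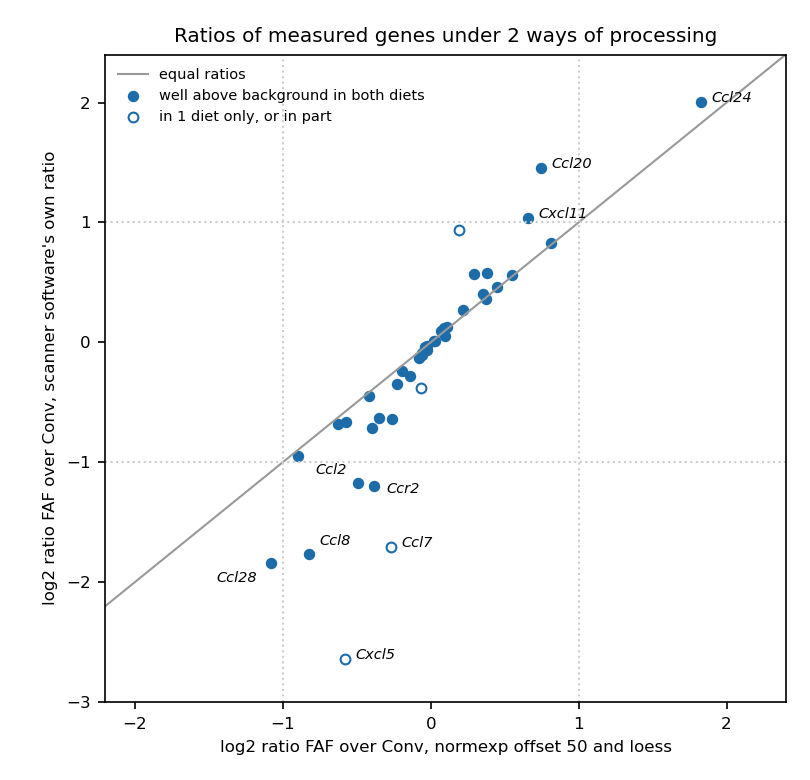
The log2 ratio of FAF over Conv of the measured genes by the main processing (horizontal) against the scanner software's own ratio (vertical); the line marks equal ratios, dotted lines mark 2-fold, and open circles mark genes not well above background in both diets on both arrays. Bright genes such as Ccl24 lie near the line, while Ccl20 at 0.74 and 1.45 and Ccl8 at -0.83 and -1.76 lie away from it.

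The size of a ratio depended on brightness. The main processing adds a constant to every intensity, which draws the ratios of dim probes toward 0, and the software subtracts a background instead. With the software's ratio, Ccl24, Ccl20 and Cxcl11 were higher by the 2-fold rule: Ccl24 at 2.04 and 1.96 on the arrays, and the others at means of 1.45 and 1.04. Ccl28, Ccl8, Ccl2, Ccr2, Ccl7 and Cxcl5 were lower, at -1.84, -1.76, -1.17, -1.20, -1.70 and -2.64. Ccl7 and Cxcl5 had no FAF channel well above background, so their values rest on signals near it. Bright genes kept their size, with Ccl9 at -0.95, Ccl5 at -0.68 and Cxcl14 at 0.83. No direction changed among the 8 genes past 1.5-fold under any of 10 alternative ways of making the values, some of which leave many values as they are.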

How the data were processed

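Small intestine RNA of 1 sample per diet was read on 2 dye-swapped arrays. Per the file headers, the authors extracted the scans with Agilent Feature Extraction 11.5.1.1, and the files give linear intensity of every spot and of its surroundings in either dye. They deposited a log10 ratio (Cy5 to Cy3) beside it, corrected by the same software, and the deposited value table equals it to within 5e-08. Deposited quality flags mark spots well above background, outliers (116 and 95 per array) and saturation (0 spots).

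Ratios were computed with limma 3.58.1 in R 4.3.3: normexp background correction with offset 50, loess within each array with control spots at weight 0, outlier spots left out, spots of a probe averaged, and the log2 ratio turned to FAF over Conv and averaged over the arrays. The brightest measured probe stood for a gene. Intensities of each diet were scaled between arrays by Aquantile. For Ccl7 and Cxcl5, the folds given take as the FAF level the higher of the probe's own level and the lowest level well above background. They are not strict lower bounds, since a probe above that lowest level can lack the mark. The steps were tested on simulated data in which changes larger than 2-fold were placed in bright spots only. That test did not cover dim probes or smaller changes. Tables and figures used Python 3.11.15, pandas 2.3.3, numpy 2.4.6 and matplotlib 3.10.9.

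With 1 RNA sample per diet no p-value was computed, and the rule of size given in the text was used. Measured members are named, and of other lists the genes that pass or those of largest absolute ratio; some genes withheld for evaluation are counted but not reported here. Madcam1, Irf1, Relb, Nfkb1, Il1b, Klrd1, Lyz2, Pdgfra, Krt8, Cd79b, Anxa5, Cmklr1 and Rarres2 were chosen after their values were seen. So were the eosinophil, neutrophil and Ccr10-related markers named besides. The members and the gene lists were chosen with earlier results of these data known. RefSeq names were found for 27668 of 41174 probes and for 71 of the 74 member probes; the others keep the array's name. Probe positions are mm9, whose annotation was not used here. Alternatives were the software's ratio, the deposited table, no background correction, offset 10, median centring, stricter and looser filters, the mean over probes, each array alone and other fold limits.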

Additional observations from a re-analysis of the deposited data

How the results depend on the processing

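Ccl24 and Ccl28 passed the 2-fold rule under all 10 alternatives on the values, and 32 of 43 member genes kept their sign under each. These alternatives are not independent. The deposited table repeats the software's ratio, and a filter leaves the value of a probe that it keeps unchanged. The mean over probes alters only genes with several measured probes. The software's ratio, and the deposited table equal to it, gave 3 members higher and 6 lower, and 487 and 350 over all genes. An offset of 10 gave 2 higher (Ccl20, at 1.06, joined) and 3 lower (Ccl8, at -1.20, and Cxcl5 joined). No background correction gave 2 lower, Ccl28 and Ccl8. Median centring gave 183 genes higher and 82 lower over the whole array, against 263 and 151. A limit of 1.5-fold gave 4 and 4 members and 775 and 616 genes, and one of 4-fold 0 and 0 members and 31 and 18 genes. With 1 array left out in turn, members higher were 1 and 1 and members lower 1 to 2, since Ccl9 joined without the array of FAF in Cy5. All genes higher were 268 to 286 and lower 143 to 172, and the member median was -0.11 to 0.02. Background subtraction changes dim probes by its construction; for the other changes the cause was not tested. Of 426 values of single genes, 366 moved by less than the 0.13 SD between arrays or, for Ccl24 and Ccl28, still passed. These 366 include values that could not change, for the reasons given above. A further 41 moved by more without passing, 19 newly passed and none reversed a call. No paired analysis was possible because each dye orientation holds 1 array and both arrays carry the same RNA. The number of arrays and of RNA samples limits the precision, and dim members (Ccl7, Cxcl5, Ccr2, Ccr3, Ccr7) are limited by signal over background.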
